A study of Drosophila melanogaster with 6 samples.

Results

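The genes described here encode the structural proteins of the insect cuticle. They were picked by gene symbol, with earlier results of these data known. The rule took probe sets whose symbol belongs to the Cpr, Lcp, Ccp84, Pcp, Acp1, Acp65A, Edg, Twdl, Cpap or Crys genes. This gave 122 probe sets of the 18769 tested, carrying 118 gene labels and 121 distinct cuticle gene symbols, since 12 probe sets carry the names of several genes. No Cpap symbol was found. The 19 probe sets that reached log2 4 in at least 1 sample are each named below, and the other 103 are given by their ranges.

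Whole *Drosophila melanogaster* of the isogenic stock y(1), w67c23(2) were compared at 3 days (young age group) and at 45 days (old age group), both cultured at 20 °C in bottles with males and females together. There were 3 samples per group, each a pool of many flies labelled as 100 females and 100 males, and each was hybridized to its own Affymetrix GeneChip Drosophila Genome 2.0 array. All flies carried the *yellow* and *white* mutations of this stock, in both age groups. Values are log2 expression values after GCRMA, a normalization that corrects the background by probe sequence and brings all arrays to a common distribution. The samples are called Young1 to Young3 and Old4 to Old6 after the numbers of the deposited columns. Since the RNA came from whole animals, less RNA per epidermal cell cannot be told apart from fewer such cells.

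The cuticle is a layered coat of chitin fibres and proteins that the epidermis secretes at its apical surface. Most cuticle proteins of flies carry the Rebers and Riddiford consensus, a chitin-binding stretch, and are named Cpr (cuticular protein with this consensus). Each moult uses its own set: Lcp and Ccp84 genes were described as larval, Edg and Pcp genes as pupal, and Acp genes as adult cuticle genes. After eclosion the adult fly goes on laying down inner cuticle for some days while the outer layers harden and tan. The lens of the eye is cuticle as well, secreted by cells of the ommatidia.

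Array medians lay between 2.45 and 2.47. Each sample correlated more with its own group than with the other across all probe sets, and Old4 was the old sample nearest to the young ones (r of 0.984 to 0.987, against 0.971 to 0.979 for Old5 and Old6; these are correlations across probe sets, which are not replicates). The labels give flies of both sexes. Yolk protein genes (3 of 3 between 13.3 and 14.7) and female germline genes (3 of 3 between 12.6 and 14.6) were high in all samples, but 4 male accessory gland genes (2.06 to 2.37) and 4 testis genes (2.10 to 2.40) were at the low end of the scale on all 6 arrays. The male markers therefore go against the label of mixed sexes, whereas the results text of the study speaks of females. This was so in both age groups.

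Of the 122 cuticle probe sets, 13 were downregulated and 1 was upregulated in old age flies. The criteria were a change of more than 2-fold, p under 0.05 and a false discovery rate (FDR) under 0.15, in a limma fit over all probe sets; a probe set that met them is said to be called. The downregulated share was 10.7%, and over all probe sets tested it was 2.96%. The upregulated share was 0.82%, against 3.45% over all probe sets. The set was chosen with earlier results known, so these shares are no independent test. In 21 of the 122 (17.2%), all old values lay under all young values, as in 12.6% of all probe sets. In 4 (3.28%), all old values lay above all young ones, as in 16.1% of all. The median difference, old minus young, was -8.53e-04 on the log2 scale for the 122 and 8.17e-04 over all probe sets, because most cuticle probe sets were near the low end in both groups. Without Old4, 12 were called lower, all but Cpr47Ee, and over all probe sets 541 were, against 556 with it. With 3 samples per group, the smallest 2-sided p of an exact permutation test is 0.1. The calls therefore depend on the distribution that the test assumes. The t-test of the methods, which pools no variance across probe sets, called the same 13 lower, and 1 higher.

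**Figure D1:**
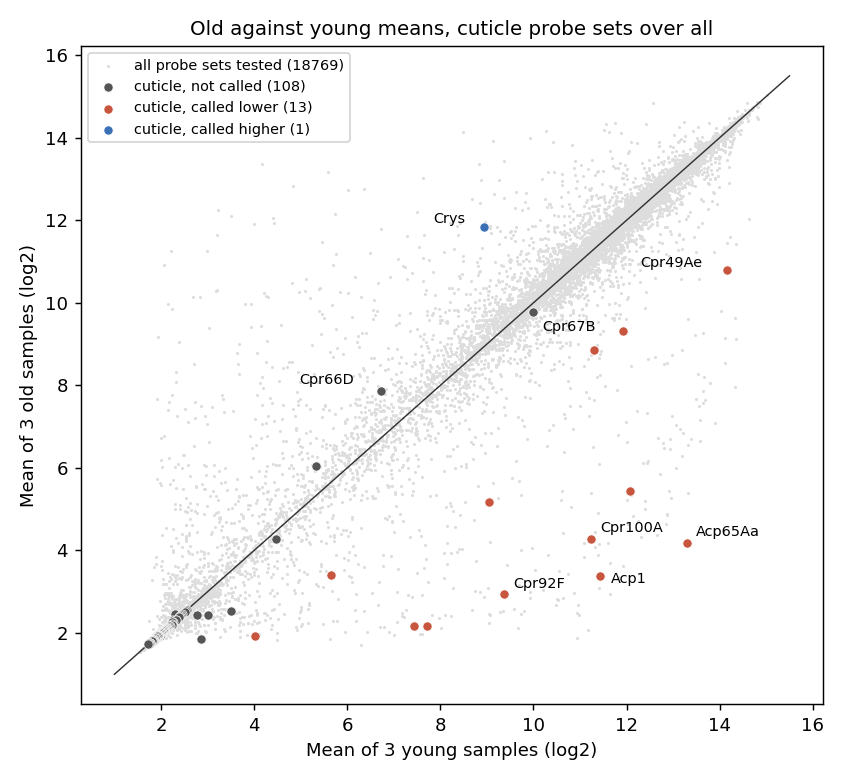
Mean log2 value of the 3 old samples (vertical axis) against that of the 3 young samples (horizontal axis) for all probe sets tested (grey) and the 122 cuticle probe sets (coloured by call); the diagonal marks equal means. The 13 downregulated cuticle probe sets lie under the diagonal, Crys lies above it, and most of those that were not called sit at the lower left end.

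The probe sets of both adult cuticle protein genes were called lower in old flies, although that of Acp1 is not specific to it. Acp65Aa (FBgn0020765) stood at 13.03, 13.21 and 13.65 in the young samples, and at 8.40, 2.04 and 2.07 in Old4, Old5 and Old6. The groups did not overlap, but the old samples were far apart: in Old5 and Old6 the gene was at the low end of the scale, while Old4 kept a clear signal. Its difference was -9.13 ± 1.93 (log2, SE), with an FDR of 0.0458 in limma, and it was -11.24 without Old4, -8.06 without Old5 and -8.08 without Old6.

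The probe set of Acp1 is shared by Acp1 and the unnamed genes CG13796 and CG31904, so its signal cannot be assigned to Acp1 alone. It read 11.41, 11.51 and 11.39 in the young samples, a spread of 0.13, and 5.21, 2.45 and 2.49 in Old4, Old5 and Old6. Again only Old4 stayed above log2 4. The difference was -8.05 ± 0.83 (SE; FDR 0.00656, limma), a fold difference of -265, and the fold difference was -499.8 without Old4. With values under log2 4 raised to 4, the differences were -7.83 for Acp65Aa and -7.03 for the shared probe set. With values under log2 6 raised to 6, they were -6.50 and -5.44, so part of the size rests on how low values are treated.

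A further 5 genes of the Cpr family were called lower with young values well above log2 4 and at least 1 old sample below it. The same held for Cpr72Ec, which is given below with the lens genes. Cpr100A (FBgn0039805) was at 10.91, 11.52 and 11.27 in the young samples and at 6.25, 3.49 and 3.08 in Old4, Old5 and Old6, a fold difference of -124 (FDR 0.0122, limma). Cpr65Au (FBgn0042119) was at 11.92, 12.13 and 12.20 in the young samples and at 7.99, 3.80 and 4.55 in the old ones, a fold difference of -99.4 (FDR 0.0277, limma). In both, Old4 lay between the young samples and the other two old samples. Without Old4 the fold differences were -247 and -239.9, and over each sample left out in turn the log2 differences ran from -7.95 to -6.36 for Cpr100A and from -7.91 to -5.81 for Cpr65Au.

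Cpr92F (FBgn0038819) was at 9.10, 9.25 and 9.78 in young samples and at 4.16, 2.33 and 2.36 in old ones (fold difference -86.3, FDR 0.00482 in limma). Old4 was again the highest of the old samples, yet close to log2 4, and without it the fold difference was -131. Cpr97Eb (FBgn0039481) gave 7.50, 8.50 and 7.17 in young samples and 2.68, 1.92 and 1.93 in old ones, a fold difference of -46.7 (FDR 0.00343, limma).

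Cpr62Bc (FBgn0035281) was at 6.72, 8.25 and 7.37 in young samples, a wide range of 1.53, and at 2.17, 2.15 and 2.16 in old ones. All 3 old samples were at the low end of the scale, where alike values say little about the level. The fold difference was -39.0 (FDR 0.00336, limma). With values under log2 6 raised to 6, its difference was -1.45 and it was no longer called (FDR 0.196, limma).

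In 3 other Cpr genes the level fell but stayed well above log2 4 in every old sample. Cpr49Ae (FBgn0033728) stood at 13.96, 14.17 and 14.36 in the young samples and at 12.37, 10.18 and 9.81 in Old4, Old5 and Old6. The fall was 3.38 ± 0.73 (log2, SE; fold difference -10.4, FDR 0.0499 in limma), and Old4 stood more than 2 log2 units above the other old samples. Its call was lost without Old5 (FDR 0.161, limma), and without Old4 the fold difference was -18.0.

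Cpr49Ab (FBgn0050042) was at 11.80, 11.92 and 12.07 in young and 9.99, 8.78 and 9.15 in old samples, with a difference of -2.62 ± 0.33 (SE; FDR 0.0110, limma). Cpr62Bb (FBgn0035280), the direct neighbour of Cpr62Bc on chromosome arm 3L, was at 10.96, 11.61 and 11.36 in young and 9.15, 8.69 and 8.73 in old samples. Its difference was -2.46 ± 0.22 (SE; FDR 0.00461, limma), and its old samples lay within 0.46 of each other. These 2 adjacent genes fell by unequal amounts: Cpr62Bb kept a signal near 9 where Cpr62Bc was at the low end.

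Another 2 Cpr genes were called lower from low young values. Cpr47Ee (FBgn0033602) was at 4.55, 5.94 and 6.48 in young samples and between 3.32 and 3.50 in old ones (difference -2.24 ± 0.52, SE; FDR 0.0611, limma). Cpr49Ag (FBgn0033730) was at 3.11, 4.61 and 4.37 in young samples and at 2.08, 1.79 and 1.89 in old ones (-2.11 ± 0.43, SE; FDR 0.0412, limma). Young1 was the lowest young sample for both. Neither call held with values under log2 4 raised to 4, where the differences were -1.66 and -0.33, and that of Cpr47Ee was also lost without Young2, Old4, Old5 or Old6 (FDR 0.153 to 0.192, limma).

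**Figure D2:**
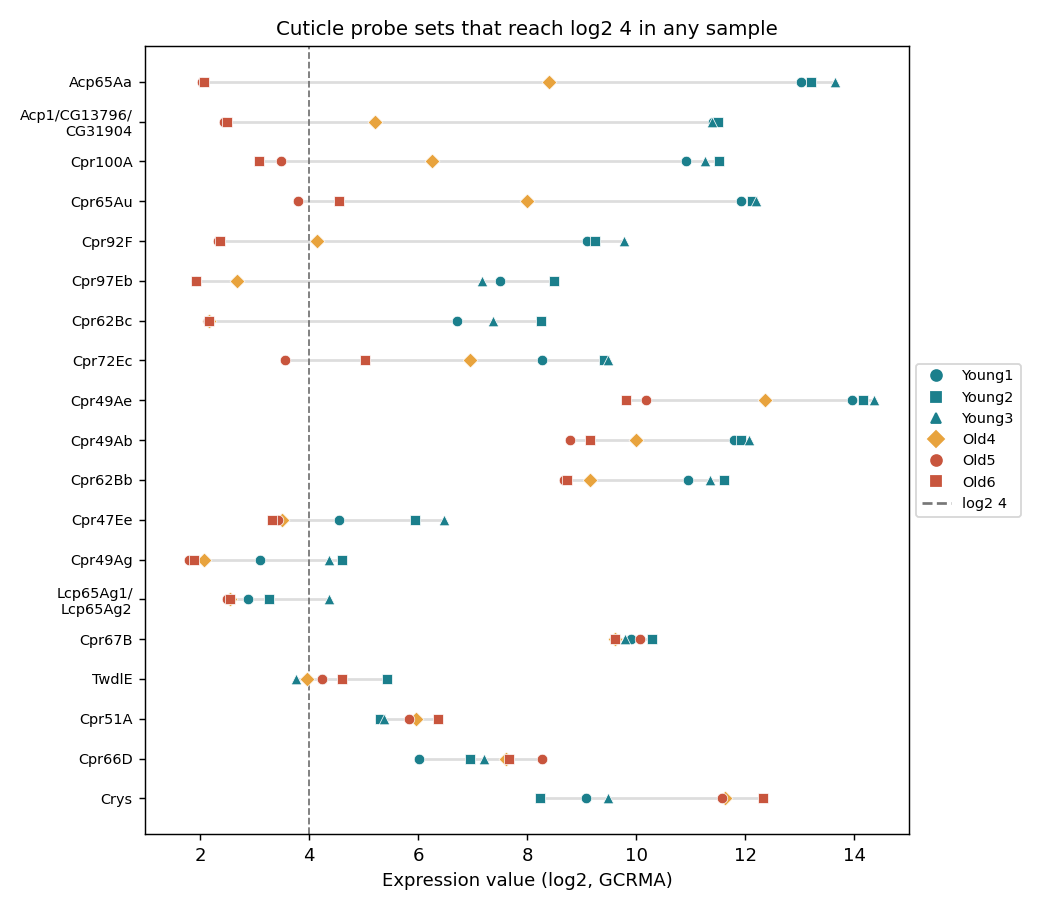
Log2 expression value (horizontal axis) of the 19 cuticle probe sets that reach log2 4, ordered from the largest fall to the largest rise, with a symbol for each of the 3 young and 3 old samples and a dashed line at log2 4. In the upper rows the young samples sit far to the right of Old5 and Old6, with Old4 between them in Acp65Aa, Cpr100A, Cpr65Au and Cpr72Ec.

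Among the cuticle genes are 3 that code for proteins of the corneal lens, and they did not move together. Crys, the gene of drosocrystallin, a major lens protein (FBgn0005664), was the only cuticle gene called higher: it was at 9.07, 8.24 and 9.48 in young samples and at 11.62, 11.58 and 12.33 in old ones. The groups were apart by more than 2 log2 units, and the rise was 2.91 ± 0.40 (log2, SE; fold difference 7.53, FDR 0.0134 in limma). It was called whichever sample was left out, with a difference of 2.57 to 3.19.

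Cpr66D (FBgn0052029), another lens component, was at 6.02, 6.95 and 7.20 in young samples and at 7.61, 8.28 and 7.68 in old ones. All old values were above all young ones, and the difference was 1.13 ± 0.38 (SE), but its FDR of 0.153 in limma missed the limit of 0.15, and it was called without Young3 (1.37, FDR 0.140, limma). Cpr72Ec (FBgn0036619), the third lens component, went the other way, from 8.28, 9.41 and 9.48 to 6.94, 3.57 and 5.03 in Old4, Old5 and Old6 (-3.87 ± 0.96, SE; FDR 0.0718, limma). Its call was lost without Young2, Young3 or Old6 (FDR 0.178 to 0.212, limma), and the difference was -4.75 without Old4 and -3.07 without Old5.

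The lens gene retinin, which has no cuticle symbol and was picked after its values were seen, behaved as Cpr72Ec in direction: it was at 10.94, 11.61 and 11.41 in young samples and at 7.06, 2.59 and 2.63 in old ones (fold difference -150, FDR 0.0327 in limma). Photoreceptor genes of the same eye were not called: ninaE, the main rhodopsin, was at 13.30 to 13.67 in young and 13.89 to 13.96 in old samples, Arr2, an arrestin, at 13.29 to 13.74 and 13.81 to 14.02, and ninaC, a myosin of photoreceptors, at 8.70 to 8.88 and 8.47 to 8.80. The part of eye tissue in these differences was not tested.

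For 4 more genes no call was made. Cpr67B (FBgn0035985) was at 9.90, 10.28 and 9.79 in young and 9.61, 10.07 and 9.62 in old samples. The groups overlapped, and the difference was -0.22, with a 95% interval of -0.73 to 0.28, so a fall as large as 2-fold lies outside it. Cpr51A (FBgn0033942) was at 5.29 to 5.37 in young and 5.84 to 6.37 in old samples, without overlap. Its difference of 0.74 ± 0.15 (SE; FDR 0.0386, limma) was below the fold criterion.

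TwdlE (FBgn0031957) belongs to the Tweedle family, a group of cuticle proteins known from mutants with short, broad bodies. It was at 4.23, 5.44 and 3.76 in young and 3.97, 4.23 and 4.61 in old samples, with an interval of the difference (-1.46 to 1.05) that spans 2-fold on both sides. The probe set shared by the larval genes Lcp65Ag1 and Lcp65Ag2 passed log2 4 in Young3 alone (4.36), with 2.88 and 3.26 in Young1 and Young2 and 2.49 to 2.56 in old samples. It missed the criteria (difference -0.97, FDR 0.244, limma) and met them without Young1 (-1.28, FDR 0.124, limma).

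The mark of log2 4 has no meaning beyond this scale. Just above it lay Lcp65Ag1/Lcp65Ag2 (highest value 4.36), Cpr49Ag (4.61) and TwdlE (5.44). Just below it lay Cpr47Ea (3.72, in Young2), Cpr49Ac (3.70, in Young3) and TwdlT (3.13, in Young2). All 3 of these had their highest value in a young sample, and Cpr47Ea had old values of 1.83 to 1.87.

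The other cuticle probe sets stayed below log2 4 at both ages, the low end of this scale. Of these 103, none was called, against 2.96% called lower and 3.45% called higher over all probe sets. An unadjusted p under 0.05 was found for 4 in limma and for 5 in the t-test of the methods. For that limit no share over all probe sets was taken. The differences of the 103 ran from -1.01 to 0.16, and with all values under log2 4 a 2-fold change has little room. Of all probe sets tested, 45.8% reached log2 4, whereas 19 of the 122 cuticle probe sets did. Most genes of larval and pupal stages stayed below it. Of 15 Lcp probe sets, 14 stayed between 1.73 and 2.61 in all samples. The 5 Ccp84 probe sets (1.81 to 2.48), the 3 Edg probe sets (2.01 to 2.21) and Pcp (2.01 to 2.05) did as well, and so did 23 of 24 Tweedle probe sets (1.75 to 3.13). Cpr56F was at 2.12 to 2.14.

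Cuticle genes lie in clusters on the chromosomes, and only a few genes within them reached log2 4. In the cluster at 65A on chromosome arm 3L, 3 of 16 probe sets reached log2 4, and the other 13 stayed between 1.73 and 2.61. There Cpr65Au lies between Lcp65Ag3 and Lcp65Ag2, and Acp65Aa beside Lcp65Aa. Both had high young values next to a larval gene at or near the low end. In the cluster at 49A, 3 of 8 probe sets reached the mark (Cpr49Ab, Cpr49Ae and Cpr49Ag). At 62B it was 2 of 3, at 47E 1 of 8 and at 72E 1 of 3. No probe set reached it in the clusters at 84A (6 probe sets), 64A (4), 67F (4), 76B (4) or 65E (3).

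**Figure D3:**
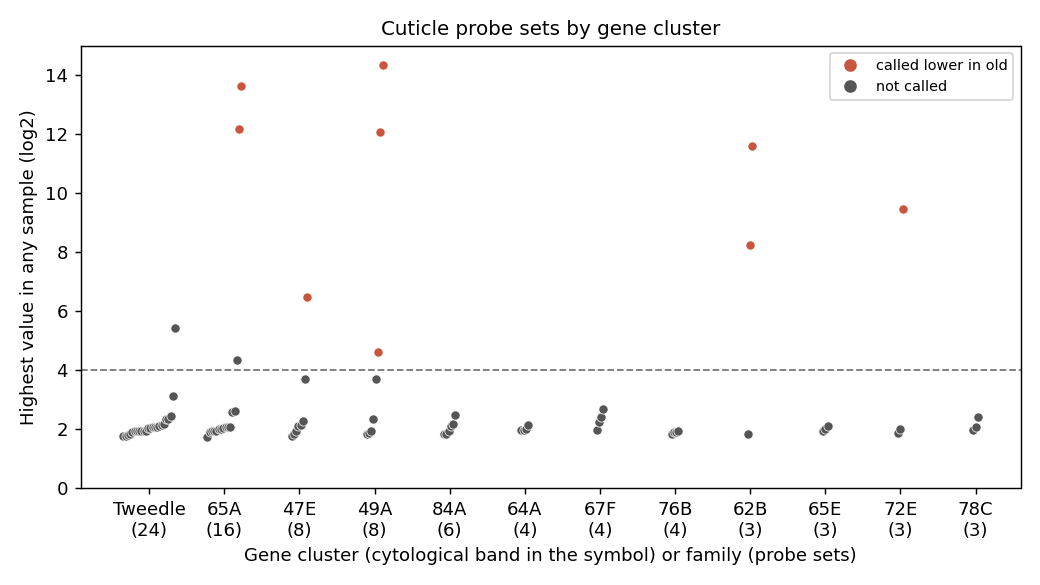
Highest log2 value in any of the 6 samples (vertical axis) for each cuticle probe set in clusters or families with 3 or more probe sets (horizontal axis, named by the band in the gene symbol), coloured by call, with a dashed line at log2 4. A few genes stand above the line at 65A, 49A and 62B while the other probe sets of these clusters lie between 1.75 and 3.70.

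The old samples differed among themselves. Of the 19 probe sets, 7 were at log2 4 or more in all 6 samples. In 3 (Cpr62Bc, Cpr97Eb and Cpr47Ee) all young samples and no old sample were that high. In 6, all young samples and some old samples were, and in 4 of these 6 (Acp65Aa, the Acp1 probe set, Cpr100A and Cpr92F) the only such old sample was Old4. The 19 were picked by the same mark, and no such tally was made over all probe sets. These counts therefore only describe the values.

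Old4 was the highest old sample in all 13 downregulated cuticle probe sets, and in 60.6% of the 556 downregulated probe sets of the whole array. It stood above the mean of Old5 and Old6 by 6.34 for Acp65Aa, 3.81 for Cpr65Au, 2.97 for Cpr100A and 2.74 for the Acp1 probe set, but by only 0.01 for Cpr62Bc and 0.13 for Cpr47Ee. Where all old values were at the low end, as for Cpr62Bc, their order says little. Over the 13, the median difference from the young mean was -4.09 in Old4, -5.49 in Old5 and -5.29 in Old6. Over the 556, it was -1.92, -2.20 and -2.15, so Old4 was nearest to the young samples there as well. On the young side, Young1 was the lowest sample in 11 of the 13, and in 49.6% of all downregulated probe sets.

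Of the tissue marker lists, that of flight muscle moved most with this order. The 3 flight muscle genes of the marker list were all called lower, and their summed log2 level was 40.8 to 41.8 in the young samples, 36.1 in Old4, 23.9 in Old5 and 23.7 in Old6. Among them, fln, the thick filament protein flightin, was at 11.38 in Old4 and at 4.82 and 5.28 in Old5 and Old6. In the gut list, Amy-p (12.16 to 12.56 in young samples and 11.77, 11.25 and 11.53 in Old4, Old5 and Old6) and alphaTry (14.10 to 14.14 and 13.88, 13.72 and 13.78) had the same order with small differences, while Mal-A1 was higher in old flies (12.51 to 13.16 and 13.63 to 13.72). None of these 3 was called. The summed level of the 3 yolk protein genes was 42.9 to 43.0 in young samples and 41.8, 41.0 and 41.6 in the old ones. That of the fat body genes was 37.7 to 41.0 and 37.9, 36.1 and 37.1, but these genes differed. Lsp2 was at 10.80 to 13.60 in young samples and at 10.69, 8.71 and 9.53 in Old4, Old5 and Old6. Fbp1 was higher in all old samples (12.72 to 12.84 and 13.07 to 13.23), and apolpp overlapped (14.17 to 14.53 and 14.16 to 14.32). The sums of the female germline genes (40.7 to 41.1 in young and 41.0 to 41.2 in old samples) and of the eye genes (35.3 to 36.2 and 36.2 to 36.8) did not have this order, and no gene of these 4 lists was called. The part of these tissues in the cuticle values was not tested.

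Of 3 genes listed for larval or pupal remnants, the larval serum protein gene Lsp1beta was called lower: it was at 8.27, 8.46 and 9.43 in young samples and at 5.50, 3.55 and 5.14 in Old4, Old5 and Old6 (FDR 0.0202, limma). The salivary glue gene Sgs3 stayed at 1.95 to 1.98 throughout, and Lsp1alpha was at 2.22, 2.28 and 3.22 in young and 2.13 to 2.19 in old samples and was not called. Whether remnants of the earlier stage had a part in the cuticle values was not tested.

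**Figure D4:**
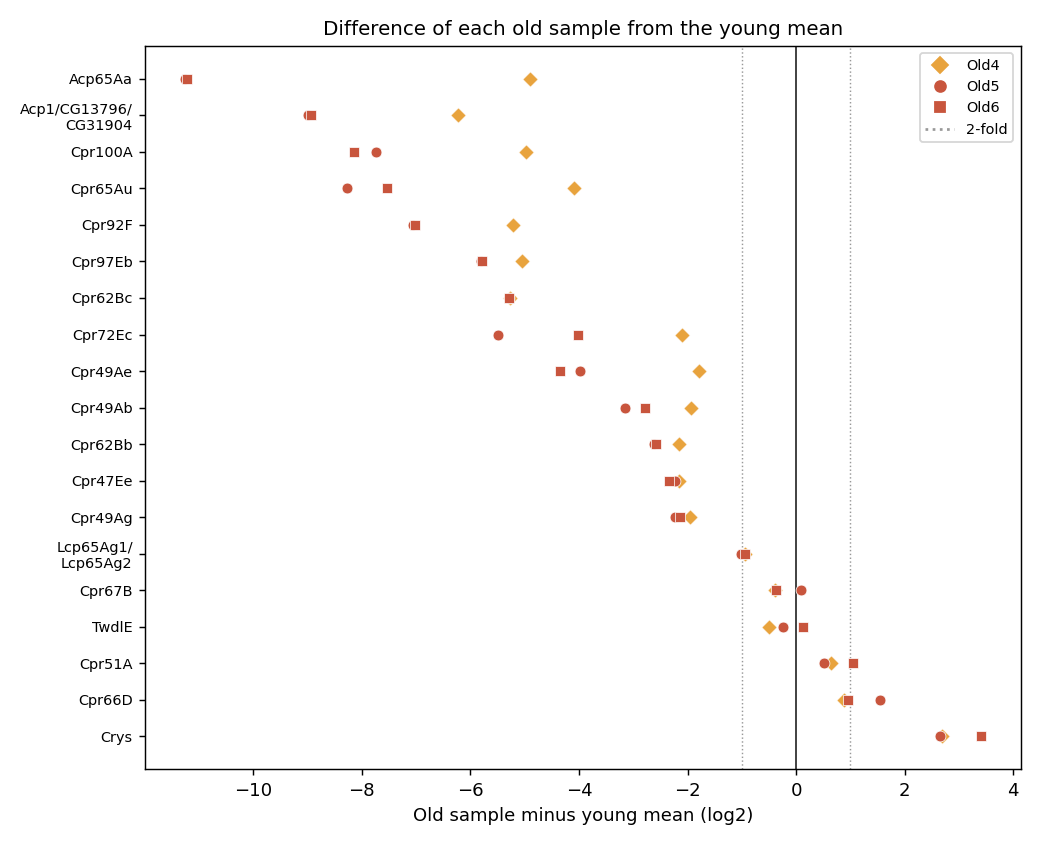
Difference of each old sample from the mean of the young samples (horizontal axis, log2) for the 19 cuticle probe sets that reach log2 4; dotted lines mark a 2-fold difference. Old4 lies nearer to zero than Old5 and Old6 in the upper rows, and the 3 old samples lie together for Cpr62Bc, Cpr62Bb and Cpr47Ee.

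Genes that build and tan the cuticle, were taken from lists of related genes, and calls in both directions were found in the chitin list alone. Among its 25 probe sets of chitin synthesis and assembly, 3 were called lower and 3 higher (over all probe sets, 2.96% and 3.45%), with a median difference of -0.02 on the log2 scale, against 8.17e-04 over all probe sets. The chitin deacetylase serp was at 7.76, 8.67 and 7.80 in young and 4.04, 4.48 and 3.33 in old samples (fold difference -17.5, FDR 0.00587 in limma). A second deacetylase gene, Cda5, was at 9.83, 9.97 and 9.41 in young and 5.66, 4.87 and 5.52 in old samples (fold difference -20.9, FDR 0.00222 in limma). In both, the groups were far apart and Old4 lay within 1 log2 unit of each of the other old samples. Gasp, a chitin-binding protein of the tracheal lining, fell by 1.95 on the log2 scale (FDR 0.0338, limma).

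Chs2, the chitin synthase of the gut lining, rose from 6.21, 6.75 and 6.01 to 8.91, 9.52 and 9.37 (fold difference 7.69, FDR 0.00462 in limma), whereas kkv, the chitin synthase of the epidermis, was at the low end in all samples (1.94 to 2.05). The chitin-binding gene obst-H rose from 1.90 to 1.92 in young samples to 4.87, 6.20 and 6.12 in old ones (FDR 0.00651, limma). Cda9 was called higher too, under log2 4 in all samples (2.15 to 2.17 in young and 3.00 to 3.85 in old samples).

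Of the 12 tanning probe sets, 3 were called lower and 0 higher (2.96% and 3.45% over all probe sets), with a median difference of -0.01 (log2). The gene amd, whose product acts on catechols of the cuticle, was at 7.22, 8.04 and 8.21 in young samples and at 4.10, 1.61 and 1.62 in Old4, Old5 and Old6 (fold difference -41.6, FDR 0.0169 in limma), with Old4 again between the groups. The gene b, which makes the beta-alanine used in tanning, fell by 2.79 (log2; FDR 0.00492, limma), and AANAT1, an acetyltransferase for dopamine, by 1.39 (FDR 0.00957, limma). Ddc, dopa decarboxylase, was at 11.46 to 11.76 in young and 12.06 to 12.62 in old samples and was not called.

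The Vajk genes code for other cuticle proteins, outside the symbol rule. Of their 6 probe sets, 2 were called lower and 0 higher (2.96% and 3.45% over all probe sets). The median difference was -0.02 (log2). Vajk2 was at 9.75, 9.88 and 10.15 in young and 4.01, 2.26 and 2.27 in old samples (fold difference -135, FDR 0.00336 in limma), but a second probe set of the gene was at 1.61 to 1.67 in all samples. Vajk3 was at 9.98, 9.54 and 9.24 in young and 2.62, 2.49 and 2.61 in old samples (fold difference -129, FDR 5.63e-04 in limma). Vajk1 and Vajk4 were at the low end at both ages. Of 11 probe sets for proteins with a zona pellucida domain, which anchor the cuticle to the epidermis, only qsm was called (lower by 1.24 on the log2 scale). Of 5 hormone and receptor probe sets for eclosion and tanning, 0 were called and none reached log2 4. With shares of 2.96% and 3.45% over all probe sets, 0 or 1 call in lists this short says little.

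**Figure D5:**
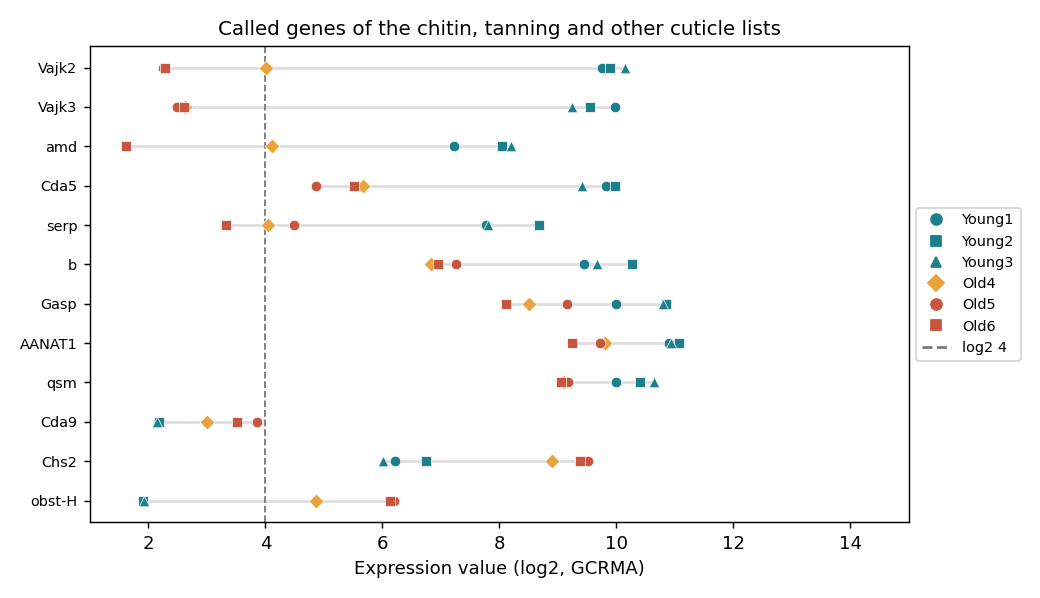
Log2 expression value (horizontal axis) of the called genes from the chitin, tanning, apical matrix and Vajk lists, with a symbol for each of the 3 young and 3 old samples and a dashed line at log2 4. Genes from Vajk2 to qsm are lower in old flies, and Cda9, Chs2 and obst-H are higher; Old4 lies between the groups in Vajk2 and amd.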

How the data were processed

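The deposited table holds log2 values: the authors normalized the array scans by GCRMA in Partek Genomics Suite 6.5, per the methods. Sequences and scans were not used here. After 183 control probe sets were left out, 18769 were fitted in limma 3.58.1 (R 4.3.3) with age as the only term, and p-values were adjusted over all of them by the Benjamini-Hochberg method. The fold, p and FDR criteria are those of the methods. SAM, which the methods name, was not run; their t-test, with equal variances, was. Old columns are numbered 4 to 6 and the labels 1 to 3, so no column was matched to a single old sample. Named are all cuticle probe sets reaching log2 4, the 3 nearest below, and called genes of the related lists; Cpr56F, kkv, Ddc, Vajk1, Vajk4 and the tissue markers were singled out after their values were seen. The members and lists were chosen with earlier results of these data known. RefSeq gene positions (Release 6) gave chromosome arms and neighbours. The script was tested on simulated data. The labels call the samples biological replicates. The number of arrays limits the precision. No batch is given.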

Additional observations from a re-analysis of the deposited data

How the results depend on the processing

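The 13 cuticle probe sets called lower became 10 to 15 under the alternatives (the t-test, an FDR under 0.05, another variance prior, other scalings, low values filtered or raised, probe sets averaged, each sample left out). It was lowest, 10, when log2 6 was the floor for all values, and 11 to 15 with a sample left out. The count called lower over all probe sets was also lowest with that floor, 377 against 556 in the main fit. The 15 without Young1 held all 13, the Lcp65Ag1/Lcp65Ag2 probe set and a probe set that stayed below log2 4 in all samples. Probe sets called higher went from 1 to 2 with a trended and robust variance prior, with only probe sets reaching log2 4 and with probe sets averaged, and to between 1 and 2 with a sample left out; the second was Cpr66D. Of the single-gene values, 264 kept their side of the criteria without a reversal, 15 lost the call, 5 gained it and 1 reversed. The 264 include differences of 0 for TwdlE and the Lcp65Ag1/Lcp65Ag2 probe set with values under log2 6 raised to 6. The reversal was in TwdlE, never called, which was at 0.28 without Young2 and between -0.56 and 0.28 with any sample left out. The cause was not tested. Values near log2 2 have no usable order, which limits the size of each large fall. Per the methods, flies were set up for each replicate, and RNA was taken at 3 days and then at 45 days. A young and an old sample may therefore share a cohort, which the fit, with age as its only term, does not use. No paired analysis was possible because the old columns carry numbers that the labels do not give.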
